A study of Homo sapiens with 6 samples.

Results

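The RNA of 10 genes that carry Rac signals to actin was followed after stable knockdown of TDP-43 in SH-SY5Y, an established neuroblastoma cell line of human origin. They are the exchange factors KALRN and TRIO, the GTPase-activating protein ARHGAP32, the GTPases RAC1 and RAC3, and the WAVE complex genes CYFIP1, CYFIP2, NCKAP1, WASF1 and WASF3. They were chosen by symbol, and 10 of 10 were found among the 26372 gene symbols of the deposited expression table. All cells carried a lentiviral U6 short hairpin vector and had passed 2 weeks of selection in 2 µg/mL puromycin, then were kept in 1 µg/mL. In the shTDP43 group (3 libraries) the hairpin targets TDP-43, a nuclear protein that binds RNA and is the product of the gene TARDBP, and in the shNC group (3 libraries) it is a control hairpin. The labels give no clone, no other hairpin and no rescue, so loss of TDP-43 and off-target or population effects cannot be told apart. Nothing in the labels states that libraries within a group were separate cultures, so the p-values reflect just the spread of these samples, which may be technical.

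Rac proteins are small GTPases that switch between a GDP-bound resting form and a GTP-bound active form. Exchange factors (GEFs) load them with GTP and GTPase-activating proteins (GAPs) return them to rest. Active Rac binds the WAVE regulatory complex, which is built from a CYFIP, NCKAP1, an ABI, BRK1 and a WAVE protein encoded by a WASF gene, and the released WAVE protein turns on the Arp2/3 complex, which starts branched actin filaments. In neurons this pathway shapes growth cones, axon branches and dendritic spines, and kalirin, the product of KALRN, is known for its role in spines. KALRN is among the genes reported to gain a cryptic exon when TDP-43 is lost.

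Because TDP-43 binds RNA at UG repeats, the longest run of alternating T and G was read from the longest protein-coding GENCODE transcript of each gene. The 6 sites shown, in the DNA letters of the transcript strand, are those of the 5 genes whose RNA moved most among those with a promoter below and of TRIO, which has the longest run. Capitals mark the run.
KALRN: gttttctagaaTGTGTGTtgaaaattgcga
CYFIP2: ttatttttttTGTGTGTGTctaataaccag
NCKAP1: tagtattcatcTGTGTGTaaattatttcat
WASF1: ccacttatatatTGTGTGatatgattttgc
WASF3: agtcccctcaGTGTGTGTGTctcgagtggc
TRIO: ttatggtttTGTGTGTGTGTtggggttggc
All 6 sites lie in the 3′ UTR, at chr3:124720893-124720922 for KALRN, chr5:157395279-157395308 for CYFIP2, chr2:182925318-182925347 for NCKAP1, chr6:110099936-110099965 for WASF1, chr13:26687422-26687451 for WASF3 and chr5:14509370-14509399 for TRIO (GRCh38; minus strand for NCKAP1 and WASF1). The run was 7 bases in KALRN, 9 in CYFIP2, 7 in NCKAP1, 6 in WASF1, 10 in WASF3 and 11 in TRIO. Among 11600 tested genes with a matching transcript the median was 6 bases, with quartiles of 6 and 8. A run at least as long as that of TRIO was found in 7.12% of these genes and one as long as that of KALRN in 47.6%. Introns, where TDP-43 also binds and where cryptic exons arise, were not analysed here.

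The promoter windows below are the first that RefSeq's table (GRCh38.p14) lists for the 5 genes of largest change that it holds, 2 of which rose and 3 of which fell. Each is the 250 bases before the transcription start, and capitals mark GGGCGG on either strand, the core letters of the GC box.
KALRN: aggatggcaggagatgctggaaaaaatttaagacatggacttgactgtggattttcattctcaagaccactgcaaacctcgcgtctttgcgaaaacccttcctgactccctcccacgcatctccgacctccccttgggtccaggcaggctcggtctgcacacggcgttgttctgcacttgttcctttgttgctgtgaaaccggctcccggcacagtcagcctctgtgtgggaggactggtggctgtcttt
CYFIP2: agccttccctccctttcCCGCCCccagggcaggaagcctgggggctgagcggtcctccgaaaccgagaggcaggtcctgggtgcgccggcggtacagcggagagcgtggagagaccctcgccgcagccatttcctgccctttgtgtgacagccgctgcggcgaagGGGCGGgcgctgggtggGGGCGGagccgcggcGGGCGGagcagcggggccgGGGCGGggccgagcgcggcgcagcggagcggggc
NCKAP1: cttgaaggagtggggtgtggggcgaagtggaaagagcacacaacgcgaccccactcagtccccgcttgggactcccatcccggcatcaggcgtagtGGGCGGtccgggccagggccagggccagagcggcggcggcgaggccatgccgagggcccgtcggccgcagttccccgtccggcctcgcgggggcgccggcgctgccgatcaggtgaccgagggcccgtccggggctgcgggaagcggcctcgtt
WASF1: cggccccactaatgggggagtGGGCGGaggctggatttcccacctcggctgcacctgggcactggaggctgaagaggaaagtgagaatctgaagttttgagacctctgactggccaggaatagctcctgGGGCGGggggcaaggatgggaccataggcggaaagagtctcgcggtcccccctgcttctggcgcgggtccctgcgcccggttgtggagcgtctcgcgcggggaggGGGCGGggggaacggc
WASF3: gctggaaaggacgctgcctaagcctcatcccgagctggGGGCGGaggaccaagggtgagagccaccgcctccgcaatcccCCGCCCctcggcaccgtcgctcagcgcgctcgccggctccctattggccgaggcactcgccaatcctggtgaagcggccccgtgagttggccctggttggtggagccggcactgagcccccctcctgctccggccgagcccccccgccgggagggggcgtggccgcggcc
They stand at chr3:124094457-124094706 (plus strand), chr5:157265873-157266122 (plus), chr2:183038458-183038707 (minus), chr6:110179671-110179920 (minus) and chr13:26557433-26557682 (plus). The GC box letters occur 0 times in the KALRN window, 5 times in CYFIP2, once in NCKAP1, 3 times in WASF1 and 2 times in WASF3, and in 42.6% of the 35097 RefSeq windows of the same length. The KALRN window is 54.4% G and C, and the other 4 are 66.8% to 76.4%, against a median of 58% over all windows. TGTGTG or its complement CACACA occurs once each in the KALRN, CYFIP2 and NCKAP1 windows and 0 times in those of WASF1 and WASF3, and in 14.3% of all windows. The E-box CACGTG occurs in none of the 5 and in 6.34% of all windows. No match of these motifs overlapped a GC box match in the 5 windows (0 overlaps). A match is only a match of letters in these windows. Of the 10 genes 8 have a window in the table. It lists 3 windows for KALRN, and the printed one lies inside the gene, which starts at 124033369. The printed WASF3 window likewise lies inside its gene, which starts at 26539139. KALRN windows 2 and 3 are 66% and 62.4% G and C, with the GC box letters 0 times and 1 time. CYFIP2 and WASF3 have a second window each, at 52.4% (0 times) and 76% (2 times). That of WASF3 (26557453 to 26557702) overlaps most of the printed one, so its matches are the same letters.

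Expression was measured as FPKM, a fragment number divided by gene length and library size, from poly(A) RNA. TARDBP averaged 34.6 ± 1.43 FPKM in shTDP43 and 56.3 ± 0.288 FPKM in shNC (SD, n = 3 each), 61.5% of control. Of 9 noradrenergic neuroblast markers, which define this line, 8 reached the level tested, 5 of them higher and 2 lower. For this and the marker counts below, 18.5% of all tested genes were higher and 19.6% lower. The 9 noradrenergic markers summed to 1839 to 1891 FPKM in shTDP43 and 1637 to 1645 FPKM in shNC, and TH was at most 0.207 FPKM in any library. Most of the difference between the sums lay in CHGA (520 FPKM in shTDP43 and 296 FPKM in shNC). The 2 that fell were PHOX2A (107 FPKM in shTDP43 and 134 FPKM in shNC) and HAND2 (424 FPKM in shTDP43 and 446 FPKM in shNC). Of 11 mesenchymal neuroblastoma markers, all had a lower mean in shTDP43, and 8 reached the level tested, all of them lower. PRRX1, YAP1 and COL1A1 did not reach it (at most 0.0115, 0.159 and 0.808 FPKM in any library). The summed level of the 11 markers, most of it VIM and LGALS1, was 183 to 190 FPKM in the shTDP43 libraries, against 319 to 326 FPKM in the shNC libraries. Schwann cell markers (7, of which PMP22 and S100B were tested and fell) summed to 9.23 to 9.45 FPKM in shTDP43, against 19.8 to 21.3 FPKM in shNC. Of these 7, 3 had a lower mean in shTDP43. Blood, endothelial and epithelial markers (11, of which 2 were tested) summed to 2.01 to 2.74 FPKM in shTDP43, against 3.62 to 4.32 FPKM in shNC, with CD3E and HBB at 0. Of these 11, 4 had a lower mean in shTDP43. Of the 2 tested, KRT18 fell and EPCAM did not pass (1.03 FPKM in shTDP43 and 0.984 FPKM in shNC). CD14, below the level tested, had a higher mean in shTDP43 (0.647 FPKM) than in shNC (0.444 FPKM). S100B (0.774 FPKM in shTDP43 and 1.5 FPKM in shNC) and KRT18 (0.368 FPKM in shTDP43 and 2.17 FPKM in shNC) reached the level tested only through shNC. The part of these marker changes in the results below was not tested, and fewer cells of a type and less RNA per cell cannot be told apart in bulk samples. In the small nucleolar RNA SNORD3A, shTDP43 replicate 3 and shNC replicate 1 were far below the other 4 libraries (8551 and 11541 FPKM, against 137209 or more), so counts are also given without both.

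Of the 10 genes, 7 fell, 2 rose and 1 did not pass the test. The test was limma on log2(FPKM + 1) over the 13263 genes whose mean over the 6 libraries was 1 FPKM or more, with Benjamini-Hochberg adjustment and a threshold of 0.05. All 10 passed that filter through both groups, the lowest value of any of them in any library being 8.95 FPKM. Across all tested genes 19.6% fell and 18.5% rose, together 38.1%, so the 2 that rose stand near the background share. The median log2 fold change was -0.11 over the 10 genes and 0.0012 over all tested genes. The 10 genes were chosen with earlier results of these data known, so these comparisons with all tested genes are descriptions. Without shNC replicate 2, 4 fell and 2 rose, and without both libraries low in SNORD3A, 6 fell and 2 rose. In 9 of the 10 genes, 7 lower and 2 higher, the groups of libraries did not overlap, as in 50.7% of all tested genes (25.4% lower and 25.3% higher). For a single gene the exact two-sided permutation test cannot give less than p = 0.1 with 3 against 3 libraries, and it gave that value for these 9.

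**Figure D1:**
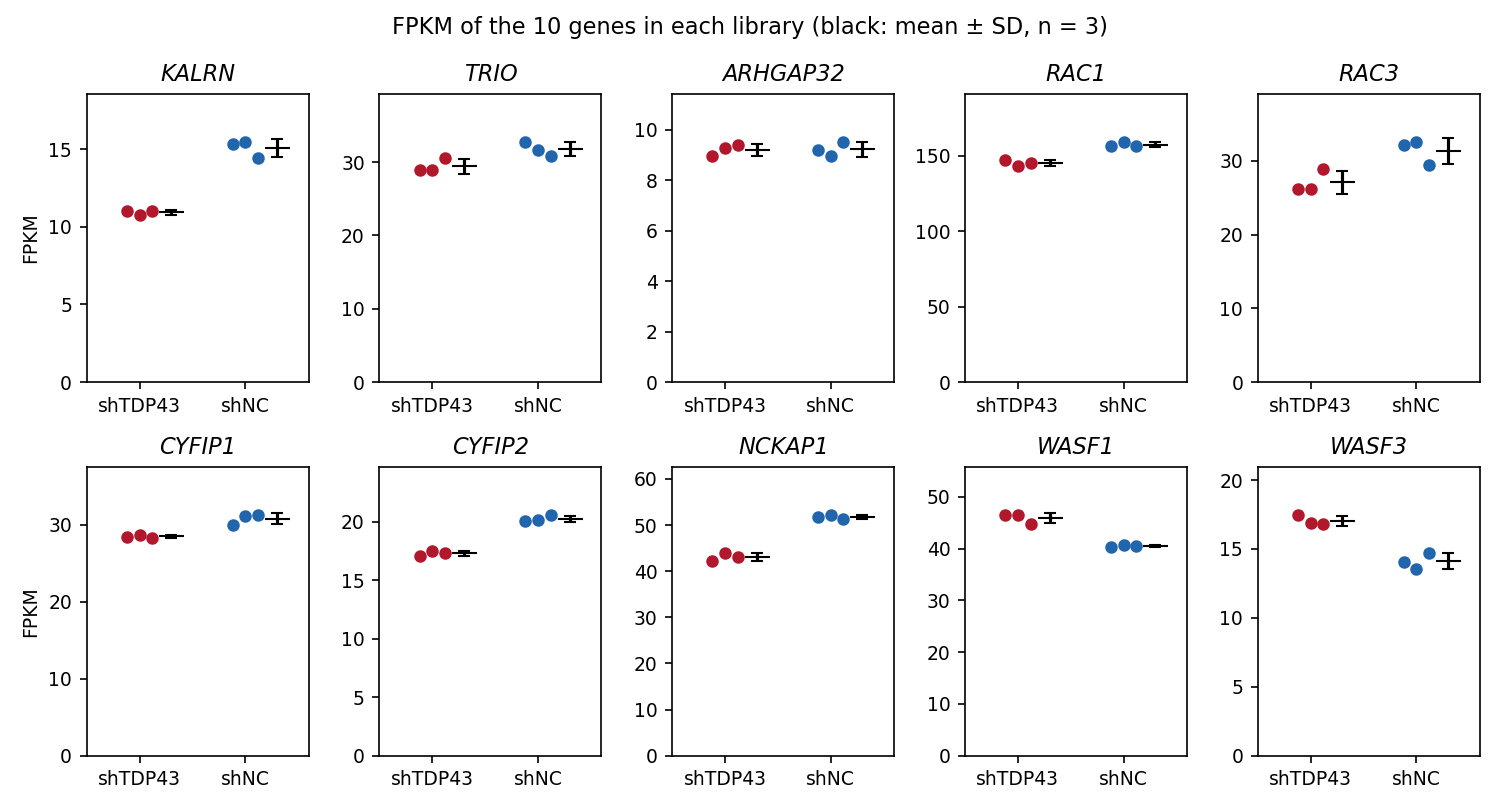
FPKM of each of the 10 genes in the 3 shTDP43 libraries (red, left) and the 3 shNC libraries (blue, right), with each axis starting at 0 and the mean and SD in black. The groups stand apart in 9 panels, with KALRN at 10.7 to 11.0 FPKM in shTDP43 against 14.4 to 15.5 FPKM in shNC, and they overlap for ARHGAP32.

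The exchange factor genes both fell, KALRN by more than TRIO. KALRN (GRCh38 chromosome 3, 124033369 to 124726325), whose product kalirin loads Rac with GTP, had 11.0, 10.7 and 11.0 FPKM in the shTDP43 libraries, against 15.3, 15.5 and 14.4 FPKM in the shNC libraries. Each shTDP43 library lay well below the lowest shNC library. The mean was 72.5% of control, a log2 fold change of -0.43 (SE 0.04, 95% interval -0.52 to -0.34, limma adjusted p = 0.000105). It was the largest change of the 10 and ranked 885 by size among the 13263 tested genes. The values sum all transcripts of the gene, so its isoforms and any cryptic exon were not analysed here.

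TRIO (chromosome 5, 14143342 to 14510204), the paralog of KALRN and likewise a GEF for Rac, had 28.9, 28.9 and 30.6 FPKM in the shTDP43 libraries, against 32.8, 31.7 and 30.9 FPKM in the shNC libraries. The highest shTDP43 value, in replicate 3, lay just below the lowest shNC value. The mean stood at 92.6% of that in shNC (log2 fold change -0.11, SE 0.03, 95% interval -0.19 to -0.03, limma adjusted p = 0.0422). Leaving out shTDP43 replicate 1 or 2, or shNC replicate 1 or 2, ended the call (limma adjusted p 0.0914 to 0.129), as did leaving out both libraries low in SNORD3A (0.0657), and the adjusted p was 0.0634 with no filter on low values and 0.0834 without the variance trend.

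ARHGAP32 (chromosome 11, 128965060 to 129279632), which encodes a neuronal GTPase-activating protein, did not pass the test. It had 8.95, 9.27 and 9.41 FPKM in the shTDP43 libraries, against 9.20, 8.95 and 9.54 FPKM in the shNC libraries. The groups overlapped fully. The log2 difference was -0.0022, with a 95% interval of -0.099 to 0.095 (limma adjusted p = 0.974). It was also the lowest of the 10 in level, in both groups.

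The GTPase genes fell by less than KALRN. RAC1 (chromosome 7, 6374527 to 6403967), the Rac found in most cell types and the most abundant of the 10 RNAs, had 147, 143 and 145 FPKM in the shTDP43 libraries, against 156, 159 and 157 FPKM in the shNC libraries. The groups did not overlap. The mean was 92.1% of control (log2 fold change -0.12, SE 0.02, limma adjusted p = 0.00345). With quantile normalization of the libraries the change was -0.045 (adjusted p = 0.169), so the fall of RAC1 was lost under that scaling.

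RAC3 (chromosome 17, 82031678 to 82034204), a close paralog expressed mainly in neurons, had 26.1, 26.2 and 28.9 FPKM in the shTDP43 libraries, against 32.2, 32.6 and 29.4 FPKM in the shNC libraries. In each group replicate 3 lay nearest to the other group. The mean was 86.3% of control (log2 fold change -0.21, SE 0.05, limma adjusted p = 0.0154). The call was lost when shTDP43 replicate 2 (limma adjusted p = 0.0527) or replicate 1 or 2 of shNC (0.0518 and 0.0525) was left out. RAC2, the Rac of blood cells, was at 0.296 to 0.474 FPKM in shTDP43 and 0.0639 to 0.319 FPKM in shNC, below the level tested.

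**Figure D2:**
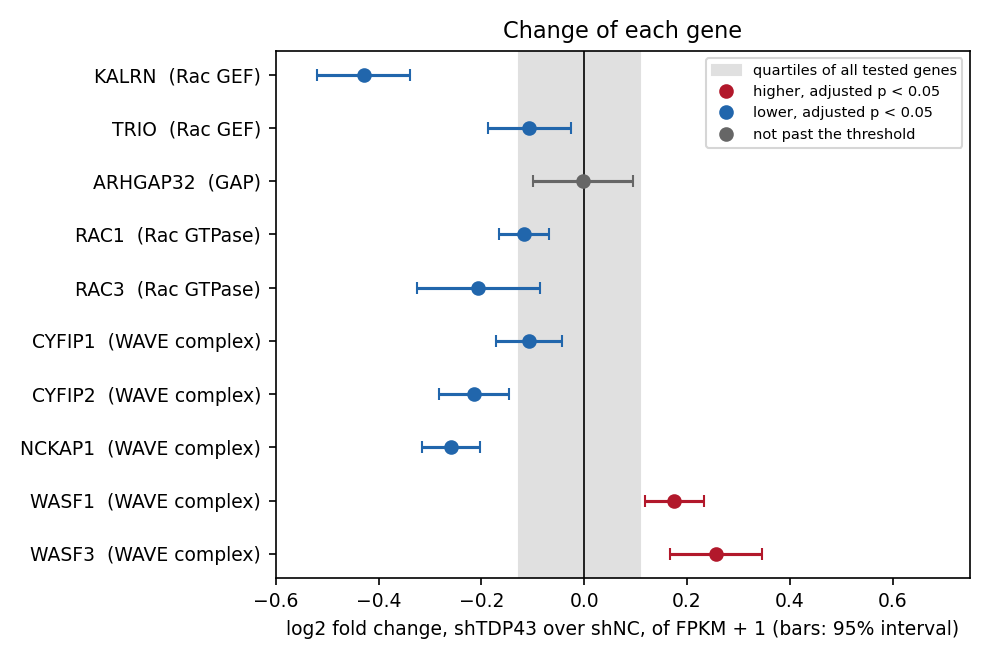
Log2 fold change of FPKM + 1, shTDP43 over shNC, for each gene with its 95% interval (limma), ordered by role, with the range between the quartiles of all tested genes (-0.13 to 0.11) shaded. KALRN at -0.43 lies farthest from 0, and WASF1 and WASF3 are the 2 genes above 0.

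The genes of the WAVE complex moved in opposite directions, with NCKAP1 and both CYFIP genes lower and both WASF genes higher. CYFIP1 (chromosome 15, 22867052 to 22980898) and CYFIP2 (chromosome 5, 157266123 to 157395594) encode alternative subunits that bind active Rac, and CYFIP proteins also bind the RNA-binding protein FMRP. CYFIP2 had 17.1, 17.5 and 17.3 FPKM in the shTDP43 libraries, against 20.0, 20.1 and 20.6 FPKM in the shNC libraries. The libraries of a group lay close together and the groups well apart. The mean was 85.5% of control (log2 fold change -0.21, SE 0.03, limma adjusted p = 0.000899).

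CYFIP1 had 28.5, 28.7 and 28.3 FPKM in the shTDP43 libraries, against 29.9, 31.1 and 31.3 FPKM in the shNC libraries. The groups did not overlap, but shNC replicate 1 lay near the shTDP43 libraries. The mean was 92.6% of control (log2 fold change -0.11, SE 0.03, limma adjusted p = 0.0173). The call was lost when shTDP43 replicate 3 (limma adjusted p = 0.052) or replicate 2 or 3 of shNC (0.0619 and 0.0579) was left out. NIPA2 overlaps CYFIP1 in the annotation (26.7 FPKM in shTDP43 and 24.9 FPKM in shNC), and FNDC9 overlaps CYFIP2 (1.44 FPKM in shTDP43 and 1.22 FPKM in shNC). The library kit keeps strand, but whether counting used it is not stated, so reads in stretches that genes share are uncertain.

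NCKAP1 (chromosome 2, 182909115 to 183038457), the scaffold subunit that pairs with CYFIP, had 42.3, 43.9 and 43.1 FPKM in the shTDP43 libraries, against 51.8, 52.2 and 51.3 FPKM in the shNC libraries. The gap between the groups was several times the spread within them. The mean was 83.3% of control (log2 fold change -0.26, SE 0.02, limma adjusted p = 0.000128). NCKAP1L, its counterpart in blood cells, was at most 0.0335 FPKM in any library.

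WASF1 (chromosome 6, 110099819 to 110179670), which encodes the neuronal activator WAVE1, had 46.5, 46.4 and 44.8 FPKM in the shTDP43 libraries, against 40.4, 40.7 and 40.5 FPKM in the shNC libraries. Each shTDP43 library lay above each shNC library. The mean was 113% of control (log2 fold change 0.18, SE 0.03, limma adjusted p = 0.00109). WASF3 (chromosome 13, 26539139 to 26688948), which encodes WAVE3, had 17.5, 16.9 and 16.8 FPKM in the shTDP43 libraries, against 14.1, 13.5 and 14.7 FPKM in the shNC libraries. These groups did not overlap either, and the mean was 121% of control (log2 fold change 0.26, SE 0.04, limma adjusted p = 0.00153).

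The remaining WAVE subunits did not pass the test, 0 of 4 in either direction, beside 18.5% higher and 19.6% lower among all tested genes. WASF2, which encodes the WAVE2 protein of most cell types, averaged 20.0 ± 0.279 FPKM in shTDP43 and 20.7 ± 0.510 FPKM in shNC (SD, n = 3 each), with a 95% interval of -0.12 to 0.024 on the log2 scale. ABI1 had 14.4 ± 0.640 FPKM in shTDP43 and 13.8 ± 0.569 FPKM in shNC (interval -0.042 to 0.17), and ABI2 had 53.7 ± 0.850 FPKM in shTDP43 and 55.1 ± 0.749 FPKM in shNC (interval -0.090 to 0.021). BRK1, the smallest subunit, had 78.0 ± 2.2 FPKM in shTDP43 and 82.1 ± 3.34 FPKM in shNC (interval -0.15 to 0.0085), and it passed as lower without shNC replicate 1 (limma adjusted p = 0.045). ABI3 was listed at 0 in all 6 libraries.

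The order of the 10 levels differed between the groups in the places of 3 pairs. NCKAP1 stood below WASF1 in shTDP43 (43.1 against 45.9 FPKM) and above it in shNC (51.8 against 40.5 FPKM), and the ranges of this pair did not overlap in either group. KALRN stood below WASF3 in shTDP43 (10.9 against 17.0 FPKM), while in shNC KALRN was at 15.1 FPKM and WASF3 at 14.1 FPKM with overlapping ranges. RAC1 led in both groups, and TRIO, CYFIP1 and RAC3 lay between 27.1 and 31.8 FPKM on average. CYFIP1 stood above RAC3 in shTDP43 (28.5 against 27.1 FPKM) and below it in shNC (30.8 against 31.4 FPKM), with overlapping ranges in both groups. The ranges of CYFIP2 and WASF3 also overlapped in shTDP43. The range of TRIO overlapped that of RAC3 in both groups and that of CYFIP1 in shNC. FPKM is per length, so levels of different genes can be set side by side, within the limits of gene models.

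Paralogs were compared as the log2 ratio of their FPKM in each library, for 4 pairs. KALRN over TRIO was -1.39, -1.43 and -1.47 in the shTDP43 libraries, against -1.10, -1.03 and -1.10 in the shNC libraries, a difference of -0.35. CYFIP2 over CYFIP1 was -0.74, -0.72 and -0.71 in the shTDP43 libraries, against -0.58, -0.63 and -0.61 in the shNC libraries, a difference of -0.11. In both pairs the groups did not overlap, so KALRN and CYFIP2 made up less of their pair in each shTDP43 library. The exact two-sided permutation p was 0.1 for each, the smallest that 3 against 3 libraries allow, and 0.2 after Benjamini-Hochberg adjustment over the 4 pairs.

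The other 2 ratios overlapped between the groups. WASF1 over WASF3 averaged 1.43 ± 0.0254 in shTDP43 and 1.52 ± 0.0644 in shNC (SD, n = 3 each), a difference of -0.093. RAC3 over RAC1 averaged -2.42 ± 0.0873 in shTDP43 and -2.33 ± 0.0758 in shNC, a difference of -0.095. The exact permutation p was 0.2 for each, and 0.2 adjusted over the 4 pairs. As the groups overlapped, a change in the balance of WASF1 to WASF3, or of RAC3 to RAC1, was not shown. The exact permutation test cannot give less than p = 0.1 here, so it shows a change for none of the 4 pairs.

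**Figure D3:**
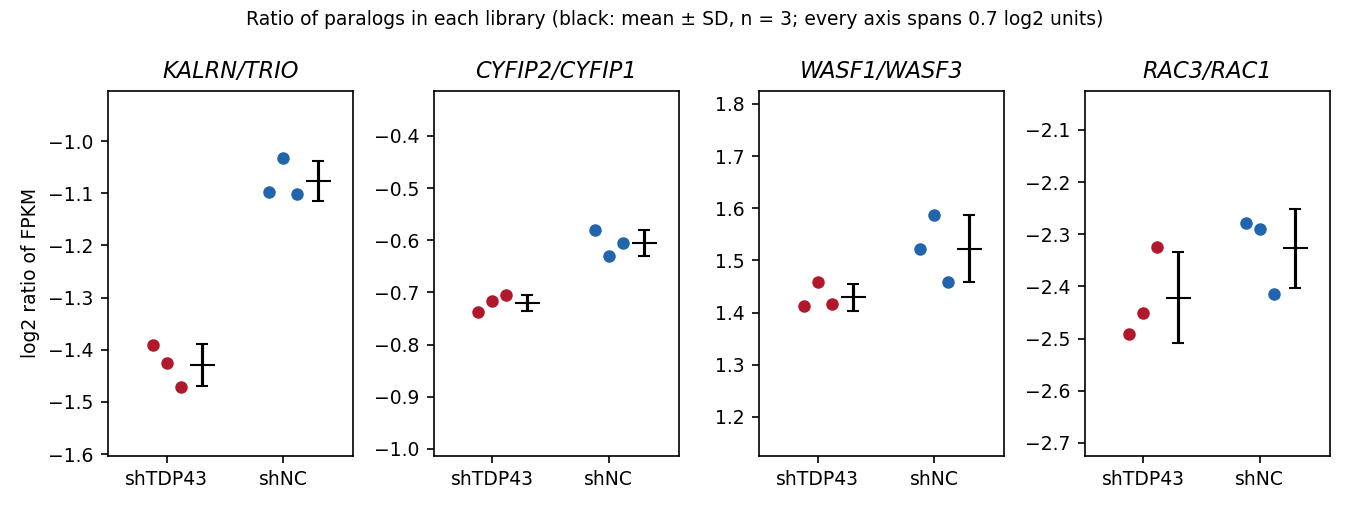
Log2 ratio of FPKM between paralogs in each shTDP43 library (red, left) and each shNC library (blue, right), with the mean and SD in black and every axis spanning the same 0.7 log2 units. KALRN/TRIO and CYFIP2/CYFIP1 separate the groups, with differences of -0.35 and -0.11, while WASF1/WASF3 and RAC3/RAC1 overlap.

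Summed over paralogs, the 3 WASF genes were higher in level in shTDP43 than in shNC, and the CYFIP pair, the KALRN pair and the Rac genes were lower, with no overlap between the groups of libraries. WASF1, WASF2 and WASF3 together had 83.0 ± 1.36 FPKM in shTDP43 and 75.4 ± 0.497 FPKM in shNC (SD, n = 3 each), 110% of control. WASF2 gave 24.1 ± 0.341% of this sum in shTDP43 and 27.5 ± 0.612% in shNC. CYFIP1 and CYFIP2 together had 45.8 ± 0.353 FPKM in shTDP43 and 51.0 ± 0.961 FPKM in shNC, 89.8% of control, and ABI1 and ABI2 together had 68.1 ± 0.210 FPKM in shTDP43 and 68.8 ± 1.24 FPKM in shNC, 99.0% of control. KALRN and TRIO together had 40.4 ± 1.11 FPKM in shTDP43 and 46.8 ± 1.44 FPKM in shNC, with KALRN at 27.1 ± 0.552% of the sum in shTDP43 and 32.2 ± 0.581% in shNC. RAC1, RAC2 and RAC3 together had 172 ± 2.43 FPKM in shTDP43 and 189 ± 2.98 FPKM in shNC. These sums are descriptions of RNA, and protein was not analysed here.

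Among other GEFs for Rac and their ELMO partners, 7 of 23 tested genes rose and 4 fell, beside 18.5% and 19.6% of all tested genes. The list median was -0.0053. DOCK4, a GEF of the DOCK family, rose to 135% of control (18.8 ± 0.195 FPKM in shTDP43 and 14.0 ± 0.385 FPKM in shNC, SD, n = 3 each, limma adjusted p = 5.57e-05). ARHGEF6, a GEF that binds PAK kinases, fell to 63.6% (1.22 ± 0.0169 FPKM in shTDP43 and 1.92 ± 0.00751 FPKM in shNC). The number that fell was 2 among genes of at least 5 FPKM, and 7 without the variance trend. DOCK1 fell to 84.2% of control while ELMO1, whose product partners DOCK proteins, rose to 119%.

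Of 15 other GAPs for Rac or Cdc42, 4 rose and 2 fell, beside 18.5% and 19.6% of all tested genes. The list median was 0.037. ARHGAP22, a GAP for Rac, fell to 33.1% of control, at 1.37 ± 0.109 FPKM in shTDP43 and 4.15 ± 0.294 FPKM in shNC (SD, n = 3 each, limma adjusted p = 1.93e-05). SRGAP1, a GAP of the Slit-Robo pathway, rose to 144%, at 6.68 ± 0.320 FPKM in shTDP43 and 4.63 ± 0.350 FPKM in shNC. The number that rose was 2 without shNC replicate 1, shTDP43 replicate 2 or shTDP43 replicate 3, and the number that fell was 1 without shNC replicate 1 or shTDP43 replicate 1. Without both libraries low in SNORD3A, 2 rose and 1 fell.

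Of 26 effectors of Rac and Cdc42, 4 rose and 6 fell, near the 18.5% that rose and 19.6% that fell of all tested genes. The median was -0.057. CDC42EP1, a Cdc42 effector, fell to 28.3% of control, at 0.795 ± 0.0718 FPKM in shTDP43 and 2.81 ± 0.272 FPKM in shNC (SD, n = 3 each, limma adjusted p = 4.76e-05), so it reached the level tested through shNC. WIPF3, a WASP-interacting protein, fell to 72.8%, at 2.81 ± 0.0894 FPKM in shTDP43 and 3.86 ± 0.0308 FPKM in shNC. The number that rose was 2 without shNC replicate 1 or shTDP43 replicate 2, and 0 without both libraries low in SNORD3A.

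In the Arp2/3 complex and its regulators, 2 of 13 rose and 2 fell, near the 18.5% that rose and 19.6% that fell of all tested genes. The median was 0.013. The alternative ARPC1 subunits went opposite ways. ARPC1B fell to 70.3% of control, at 14.7 ± 0.633 FPKM in shTDP43 and 20.9 ± 0.258 FPKM in shNC, and ARPC1A rose to 115%, at 66.9 ± 1.43 FPKM in shTDP43 and 58.0 ± 3.97 FPKM in shNC (SD, n = 3 each, limma adjusted p = 4.52e-05 for ARPC1B and 0.00868 for ARPC1A). The number that rose was 1 without shNC replicate 1, shNC replicate 2 or any shTDP43 library, and 1 without both libraries low in SNORD3A.

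Genes of actin monomers and filament turnover were lower in 10 of 26 and higher in 2, beside 19.6% lower and 18.5% higher among all tested genes, with a median of -0.030. CAP2, a cyclase-associated protein that recycles actin, fell to 52.5% of control, at 2.26 ± 0.143 FPKM in shTDP43 and 4.31 ± 0.217 FPKM in shNC. SSH2, a phosphatase that activates cofilin, fell to 68.1%, at 28.3 ± 1.11 FPKM in shTDP43 and 41.5 ± 1.43 FPKM in shNC (SD, n = 3 each, limma adjusted p = 0.000121 for CAP2 and 2.43e-05 for SSH2). The other slingshot phosphatases SSH1 and SSH3 fell as well, to 87.9% and 68.1%. PFN1 and ACTB were the 2 that rose, to 109% and 106%. The number that rose was 1 when replicate 1 or 2 of shTDP43, or replicate 2 or 3 of shNC, was left out, and 0 without shTDP43 replicate 3. Without both libraries low in SNORD3A it was 1. Of 4 partners of CYFIP proteins in mRNA control, FXR1, a relative of FMR1, fell to 83.8% of control (24.2 ± 0.388 FPKM in shTDP43 and 28.9 ± 0.654 FPKM in shNC), and FMR1, FXR2 and EIF4E did not pass. A fall in 1 of 4 is near the 19.6% of all tested genes that fell.

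**Figure D4:**
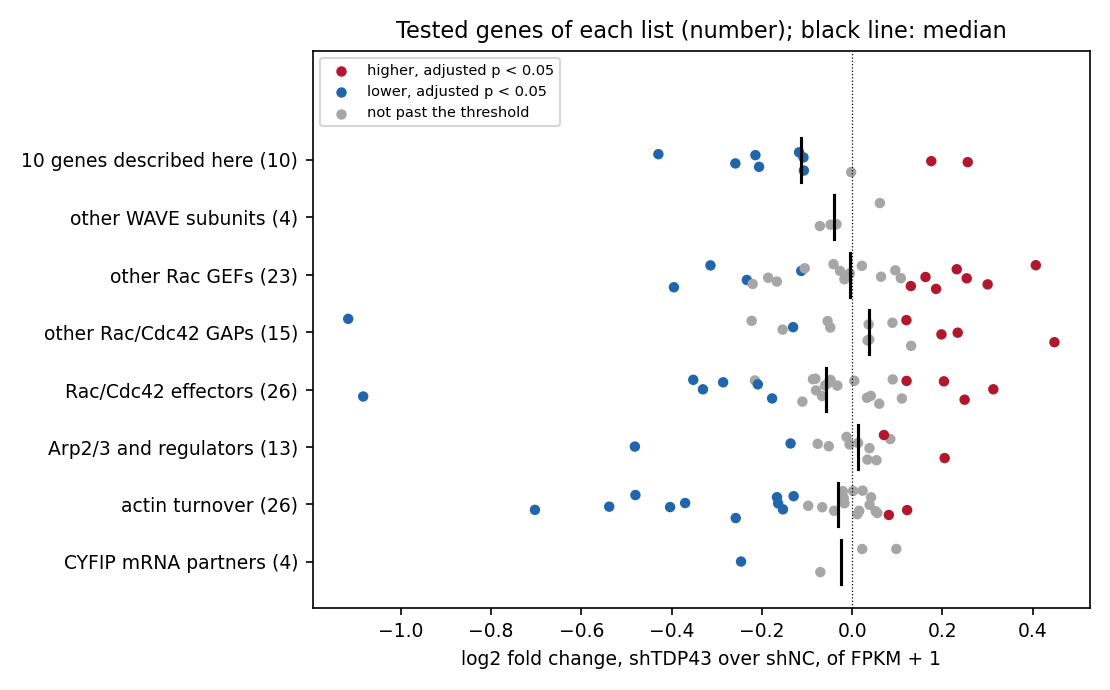
Log2 fold change of FPKM + 1, shTDP43 over shNC, of every tested gene in each list, with the list median as a black line and genes past the threshold in red (higher) or blue (lower). The 10 genes have a median of -0.11, and the lists of other genes have medians from -0.057 to 0.037.

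The genes whose profile over the 6 libraries was most like that of KALRN, by the root mean square difference of centred log2(FPKM + 1), were BCL2L13 (0.0247), TNS1 (0.0281) and PSD3 (0.0287), where the profile of KALRN itself has an SD of 0.238. BCL2L13 averaged 10.6 ± 0.202 FPKM in shTDP43 and 14.6 ± 0.677 FPKM in shNC (SD, n = 3 each), 72.6% of control. For CYFIP2 the nearest were PPP3CC (0.0132), LOC155060 (0.0133) and CORO2A (0.0133), where CYFIP2 has an SD of 0.118. LOC155060 reached the level tested only through shNC (0.971 FPKM in shTDP43 and 1.27 FPKM in shNC, 76.7% of control). PPP3CC averaged 3.73 ± 0.0740 FPKM in shTDP43 and 4.55 ± 0.109 FPKM in shNC, 82.0% of control. These profiles share the 6 libraries and mostly reflect the difference between the groups.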

How the data were processed

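The authors deposited one table of FPKM values per gene symbol and library. Per the submitters' processing notes the genome build was hg38 and the tools were TopHat2 2.1.0, Cuffdiff 2.2.1 and SAMtools. Annotation, strand use and scaling were not given in the sources used here. The table holds no counts, so count models were not used. Steps among the lowest values gave rough relative depths of 1 to 1.12 for shTDP43 and 1.16 to 1.28 for shNC libraries. The groups were compared with limma 3.58.1 in R 4.3.3 on log2(FPKM + 1), with group as the only term, a variance trend, two-sided tests and Benjamini-Hochberg adjustment over the 13263 genes whose mean was 1 FPKM or more. A fold change on this scale understates changes of low genes, and percentages of control are ratios of mean FPKM. The test was run on simulated data with independent libraries, which cannot show whether the real libraries are technical repeats. No pair of libraries was identical. The genes and lists were chosen with earlier results of these data known. From each pathway list the text names the 2 genes past the threshold with the largest change, all called genes where 3 or fewer passed, and the profiles nearest to KALRN and CYFIP2. WASF2, ABI1, ABI2, ABI3, BRK1, NCKAP1L, RAC2, PMP22, S100B, KRT18, DOCK1, ELMO1, SSH1, SSH3, PFN1, ACTB, FMR1, FXR2 and EIF4E were named after their values were seen. So were the markers CHGA, PHOX2A, HAND2, VIM, LGALS1, PRRX1, YAP1, COL1A1, CD14 and EPCAM. Positions and promoters came from RefSeq (GRCh38.p14) and transcripts from GENCODE. One list of related genes is not reported here. Alternatives covered pseudocount, filter, scaling, variance trend, replicate block and left-out libraries.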

Additional observations from a re-analysis of the deposited data

How the results depend on the processing

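KALRN, CYFIP2, NCKAP1, WASF1 and WASF3 kept their direction and stayed past the threshold under each of the 15 alternatives. TRIO had a log2 fold change of -0.11 in the replicate block (adjusted p = 0.0842), with no filter (0.0634) and without the variance trend (0.0834). Leaving out 1 library at a time gave -0.13 to -0.085, and it was -0.11 without shNC replicate 1 and shTDP43 replicate 3 (adjusted p = 0.0657). Under the same omissions CYFIP1 spanned -0.13 to -0.097 and RAC3 -0.25 to -0.18. RAC1 was -0.045 with quantile normalization. ARHGAP32, which passed in none, spanned -0.022 to 0.019 and was 0.019 without shNC replicate 3 and 0.016 without shTDP43 replicate 1. The number of the 10 genes called lower was 4 to 6 without each library in turn, 6 or 7 under the other settings, and 6 without shNC replicate 1 and shTDP43 replicate 3, where 1563 of all genes were called higher and 1760 lower (1932 to 2093 higher and 2077 to 2292 lower without each library). No paralog ratio changed sign. Causes were not tested. Same-numbered libraries did not deviate together (r = -0.0683, 0.0644 and 0.112 for replicates 1, 2 and 3), so the labels' numbers are not taken as pairs. With the replicate block 2 of the 10 rose and 6 fell, and 4502 genes were called. Of the lists, the number of actin turnover genes called higher was 1 with no filter or with the replicate block, 0 without the variance trend, 1 without shNC replicate 1 and shTDP43 replicate 3, and 0 to 2 without each library in turn. Arp2/3 genes called higher numbered 1 with libraries divided by their median, without the trend, with the block and without both libraries, and 1 to 2 without each library. Other Rac GAPs called higher numbered 2 with no filter and without both libraries, and 2 to 4 without each library. Those called lower numbered 1 among genes of at least 5 FPKM, with the block and without both libraries, and 1 to 2 without each library. Other Rac GEFs called lower numbered 7 without the trend and 2 at 5 FPKM. Effectors called higher numbered 0 without both libraries and 2 to 4 without each. Other WAVE subunits called lower numbered 0 to 1 without each library. Depth in reads is unknown, so no counting interval could be given. The lowest value of the 10 genes in any library was 8.95 FPKM.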
